A study of Mus musculus with 6 samples.

Results

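Class I OSNs are the olfactory sensory neurons (OSNs) of the mouse main olfactory epithelium (MOE) that express an olfactory receptor (OR) gene of class I. A mature OSN transcribes a single OR allele out of a very large gene family and silences the rest. Class I ORs form the branch of the family that is most like the receptors of fish. Their genes lie together in a cluster on chromosome 7, and most of the neurons that choose them sit in the dorsal epithelium, beside dorsal neurons that chose class II ORs and share the zone marker Nqo1, a quinone reductase.

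Cells with at least 1000 UMIs (unique molecular identifiers, the counted molecules) and 500 genes were kept. A cell was taken as a mature OSN if it had at least 10 UMIs of Omp, more Omp than Gap43, at least 5 UMIs of Cnga2, Adcy3 and Gng13 together and fewer than 5 UMIs of Cyp2g1. It was a class I OSN if its most abundant OR gene had at least 3 UMIs, was not tied with another, and carried a symbol from Olfr543 to Olfr692. By this rule 490 of 5005 mature OSNs with an assigned OR were class I OSNs, out of 5535 mature OSNs and 24830 kept cells. The other 4515 OSNs with an assigned OR served for comparison.

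The cells came from 6 single-cell libraries of dissociated MOE. Libraries swap 1 and swap 2 came from Cbx*/* mice with a Cre driver, in which the Cbx1 locus expresses HP1α, the product of Cbx5, in place of HP1β, so that HP1β is lost. Control 1 was labelled WT with the Cre driver, and control 2 carried Cbx*/* without Cre, so the pair of controls differ in allele and in Cre. The gg8tTA library came from a mouse with gg8-tTA, a transactivator under the promoter of the G protein subunit gene of immature OSNs, and the tetOP2 library from a gg8-tTA; tetOP2iresGFP mouse, in which that transactivator drives the P2 OR, Olfr17, with GFP. Ages and the number of animals per library were not given. The labels do not say that replicates came from separate litters, so p-values measure the spread between these libraries. Xist was at 1249 UMIs per 1e6 UMIs in the class I OSNs of swap 1 and at 0 in those of swap 2, control 1 and control 2, where Ddx3y of the Y chromosome was counted instead, so the sex of the animals differed between the swap libraries.

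The number of class I OSNs was 72 in swap 1, 97 in swap 2, 109 in control 1, 109 in control 2, 72 in gg8tTA and 31 in tetOP2. Their median depth was 11244.5, 11670, 11252, 12344, 11784 and 10905 UMIs per cell in that order, against 11636, 12794, 12668.5, 13007, 12240.5 and 11253.5 in other OSNs. Pairs of libraries shared between 0 and 13 cell barcodes. Few members lay near the limits of the rule. There were 3 class I OSNs at the minimum of 3 receptor UMIs, and 8 and 19 mature OSNs with a class I gene on top lay just outside it with 2 and 1 UMIs, while 468 members had 10 or more. Omp was at 10 to 12 UMIs in 11 members, and 12 cells with 7 to 9 Omp UMIs fell just outside.

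Genes that the rule did not use were checked first. Gnal, the G protein of the olfactory cascade, had a UMI in 100% of class I OSNs of every library. Its share in cells that are not neurons is not given, so background RNA was not set apart for this gene. Nqo1 was found in 87.5% (95% exact Clopper-Pearson interval 77.6 to 94.1) of class I OSNs in swap 1, 78.4% (68.8 to 86.1) in swap 2, 94.5% (88.4 to 98.0) in control 1, 90.8% (83.8 to 95.5) in control 2 and 98.6% (92.5 to 99.96) in gg8tTA. In other OSNs of the same libraries the share was 35.9%, 37.4%, 28.7%, 31.0% and 38.0%. The class I share was the higher in each library, and the shares of the pair of classes did not overlap. The mean difference was 55.8 percentage points (90% ± 7.70 against 34.2% ± 4.13, SD, n = 5 libraries), with a two-sided exact permutation p of 0.062, the smallest that 5 pairs allow. Sustentacular-like cells, support cells which are not neurons, had an Nqo1 UMI in 26.5%, 29.6%, 17.1%, 29.3% and 27.8% of cells in swap 1, swap 2, control 1, control 2 and gg8tTA, at median depths of 12453 to 18866.5 UMIs. Intervals here and elsewhere cover counting error only. The share in other OSNs was above this background in each library, least so in control 2. With at least 3 UMIs of Nqo1 asked for, the shares were 80.6%, 75.3%, 91.7%, 89.0% and 91.7% of class I OSNs, 31.1%, 33.3%, 24.3%, 26.9% and 25.4% of other OSNs, and 3.66%, 6.70%, 2.96%, 8.33% and 2.53% of sustentacular-like cells.

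Class I OSNs made up a similar share of the OSNs in swap and control libraries. They were 10.7% of OSNs with an assigned OR in swap 1 (8.43 to 13.2), 10.6% in swap 2 (8.68 to 12.8), 10.7% in control 1 (8.87 to 12.8), 9.46% in control 2 (7.83 to 11.3) and 11.9% in gg8tTA (9.44 to 14.8). The swap and control values overlapped. The difference of the means was 0.547 points (10.6% ± 0.0352 against 10.1% ± 0.873, SD, n = 2 libraries each), with an exact permutation p of 1.0, where 2 against 2 libraries allow none below 0.33. In tetOP2 the share was 4.85% (3.32 to 6.82), since 377 of its cells had Olfr17 as their most abundant OR. Among the cells of that library that chose another OR, class I OSNs were 11.8%. Shares say nothing of the number of neurons in the tissue.

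The class I OSNs of swap libraries chose fewer different receptors than those of control libraries. They used 33 receptors in swap 1 and 37 in swap 2, against 61 in control 1, 63 in control 2, 45 in gg8tTA and 26 in tetOP2. At an equal number of 72 cells, by analytic rarefaction, the expected number was 33 and 32.2 for swap 1 and swap 2, and 47.8 and 48.4 for control 1 and control 2, with 45 in gg8tTA. The swap values lay below all 3 others. The difference between swap and control was -15.5 receptors (32.6 ± 0.530 against 48.1 ± 0.389, SD, n = 2 libraries each), with an exact permutation p of 0.33, the smallest possible. The share of pairs of class I OSNs with the same receptor was 3.29% and 3.76% in swap libraries and 1.34% and 1.495% in controls, with 1.49% in gg8tTA. The 5 most chosen receptors held 34.7% and 34.02% of class I OSNs in swap libraries and 21.1% and 22.9% in controls. Other OSNs, drawn at the same 72 cells from many more genes, used 64.4 and 64.4 receptors in swap libraries and 66.99 and 67.6 in controls. Their share of pairs with the same receptor was 0.334% and 0.335% in swap libraries and 0.212% and 0.182% in controls, so it was higher in swap libraries in this class too. Whether the swap difference was larger in class I OSNs was not tested.

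Of the 118 class I symbols, which lie at chr7:102476773-105369317 (GRCm38, the mm10 build of the files), 97 were chosen by at least 1 cell in the 6 libraries and 21 by none. Swap libraries used 49 and control libraries 85, of which 44 were shared, 5 were seen only in swap and 41 only in control. These counts are from 169 and 218 class I OSNs and were not brought to an equal number of cells. Swap 1 and swap 2 alone used 33 and 37, and control 1 and control 2 alone 61 and 63. Libraries of the same group thus also differed in the receptors seen, and the overlap was not tested. The receptors chosen by the most cells over control 1, control 2 and gg8tTA were Olfr683, Olfr672, Olfr591, Olfr665, Olfr689, Olfr571, Olfr596, Olfr691, Olfr655 and Olfr615. Receptors chosen by 5 or more cells in only control libraries were Olfr683, with 6 and 8 cells in the controls and 0 in gg8tTA, Olfr672, with 3 and 5 and 5 in gg8tTA, Olfr596, with 5 and 2 and 0 in gg8tTA, Olfr665, with 2 and 4 and 2 in gg8tTA, and Olfr598, with 2 and 3 and 1 in gg8tTA. None of these had a cell among the 72 and 97 class I OSNs of the swap libraries, and counts of 0 allow a share of up to 4.17% and 3.09% of them. No receptor was chosen by 5 or more cells in only swap libraries.

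The receptors that led in the swap libraries also had cells in the controls. They are named here after their values were seen. Olfr613 was chosen by 3 and 12 cells in swap 1 and swap 2, against 1 and 0 in the controls. Olfr544 had 3 and 9 cells against 1 and 2. Olfr692 had 9 and 3 against 2 and 1. The libraries of the swap group differed among themselves in which receptor led, since Olfr692 was the most chosen in swap 1, with 12.5% of its class I OSNs, and Olfr613 in swap 2, with 12.4%. Olfr571, which was also among the 10 most chosen in controls, had 4 cells in each swap library, against 2 and 3. By position, 36.1% and 32.0% of the class I OSNs of swap libraries chose one of the 29 receptors nearest the start of the cluster, where Olfr544 and Olfr571 lie, against 22.9% and 17.4% in controls and 20.8% in gg8tTA.

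**Figure D1:**
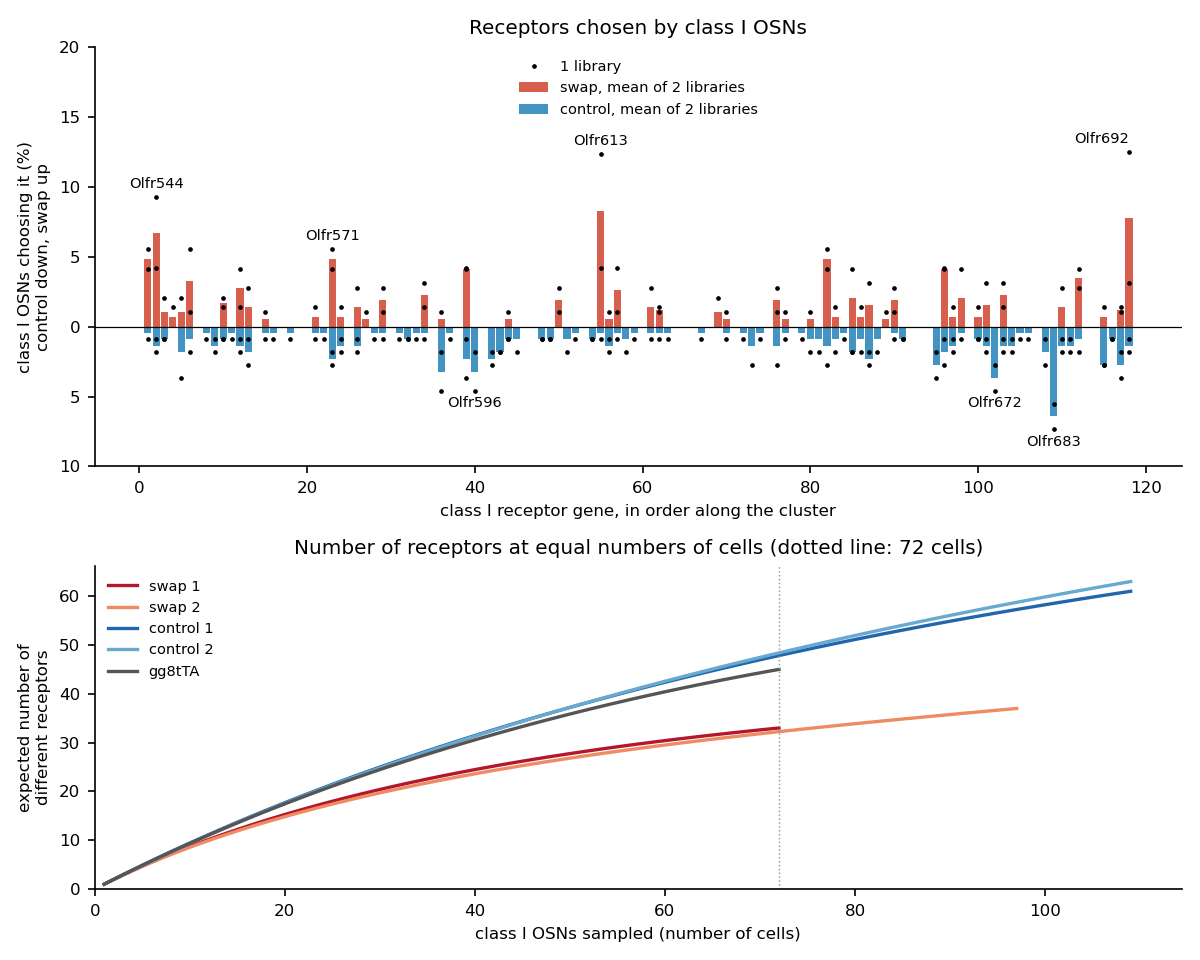
Top, percent of class I OSNs that chose each of the 118 class I receptors, in gene order along the cluster, with swap upward and control downward (bars, mean of 2 libraries; dots, each library with at least 1 cell). Bottom, expected number of different receptors against the number of class I OSNs drawn, 1 line per library; at 72 cells the swap lines stand at 33 and 32.2 and the control lines at 47.8 and 48.4.

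Olfr544 and Olfr692 lie at opposite ends of the cluster, and among the receptors chosen by 10 or more swap and control cells they are the 2 whose RefSeq promoter window holds the outermost annotated transcript start. The bases before that start are shown for both, read 5′ to 3′ on the gene's strand, with capitals marking TAATTA or TAATTG, homeodomain-type motifs of the kind read by Lhx2 and Emx2, searched on both strands (the complement of TAATTG reads CAATTA). For Olfr544 these are 244 bases at chr7:102488314-102488557, minus strand, and for Olfr692 152 bases at chr7:105368078-105368229, plus strand.
Olfr544: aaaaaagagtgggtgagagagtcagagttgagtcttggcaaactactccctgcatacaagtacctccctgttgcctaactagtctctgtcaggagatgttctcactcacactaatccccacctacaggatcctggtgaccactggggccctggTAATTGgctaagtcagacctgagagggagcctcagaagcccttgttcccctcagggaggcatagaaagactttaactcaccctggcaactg
Olfr692: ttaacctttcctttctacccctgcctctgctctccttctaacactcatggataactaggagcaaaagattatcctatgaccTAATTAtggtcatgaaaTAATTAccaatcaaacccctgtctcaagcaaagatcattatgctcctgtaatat
A TAATTG begins 91 bases before the start of Olfr544, and TAATTA begins 71 and 54 bases before that of Olfr692. TAATTA was found in 5.29% of all 32851 RefSeq promoter windows of 300 bases and in 14.9% of the 101 class I windows, and TAATTG in 8.0% and 20.8%. A match of letters is a description of these windows and not of binding. Only 17 of the 101 windows hold the outermost annotated start, so most class I windows do not cover the region upstream of the full transcript.

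The median level of the chosen receptor, at 3000 UMIs per cell, was lower in class I OSNs of swap 1, swap 2 and control 2. It was equal in control 1 and higher in gg8tTA. After thinning each cell to 3000 UMIs and applying the receptor rule again, which left 64, 95, 98, 101 and 70 class I OSNs, the median was 14, 19, 19, 20 and 27.5 UMIs of the chosen OR in swap 1, swap 2, control 1, control 2 and gg8tTA, against 17, 25, 19, 25 and 24 in other OSNs. The mean over libraries was 19.9 ± 4.85 UMIs in class I OSNs and 22 ± 3.74 in other OSNs (SD, n = 5 libraries), a difference of -2.1 UMIs. The rule set a minimum on this value, so it was not tested. Unthinned, with deeper cells in other OSNs, the medians were 49.5, 75, 58, 73 and 97 UMIs in class I OSNs and 61.5, 97, 71, 105 and 92 in other OSNs, in the order swap 1, swap 2, control 1, control 2 and gg8tTA. The class I median was the lower in 4 of 5 libraries.

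Genes other than ORs set class I OSNs clearly apart. Counts were summed per library and class and tested over 10591 genes with the library as a block, leaving out OR genes and the rule genes. Of these 137 were higher in class I OSNs (1.29% of genes tested) and 178 lower (1.68%) by edgeR's quasi-likelihood test. To be called, a gene had to change by more than 0.58 on the log2 scale at an adjusted p (Benjamini-Hochberg) under 0.05. Of the 315 genes, 282 had the same sign in all 5 libraries, 122 higher and 160 lower.

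Acsm4, an acyl-CoA synthetase of dorsal OSNs, had the smallest adjusted p. Levels are given as CPM, the UMIs of a gene per 1e6 of the library total after the TMM scaling of each fit, so that the CPM of a gene differs slightly between comparisons. The level of Acsm4 in class I OSNs was 712, 486, 699, 429 and 685 CPM in swap 1, swap 2, control 1, control 2 and gg8tTA, against 203, 142, 141, 99.1 and 181 CPM in other OSNs. The classes did not overlap. The log2 fold change was 1.99 ± 0.07 (SE), with an adjusted p of 3.43e-09 by edgeR's quasi-likelihood test. Nqo1 stood at 1309, 1394, 1953, 1675 and 3113 CPM against 450, 593, 377, 428 and 556 CPM, a log2 fold change of 1.93 ± 0.14. Every class I value lay above every other value.

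Fam19a4, which encodes a small secreted protein of the TAFA family, was the most selective of the named genes. It stood at 68.8, 46.0, 128, 74.4 and 134 CPM in class I OSNs and at 0.132, 0.374, 2.30, 0.688 and 4.45 CPM in other OSNs. It was found in 44.4%, 38.1%, 69.7%, 53.2% and 70.8% of class I OSNs, in 0.166% to 2.07% of other OSNs and in 0% to 0.844% of sustentacular-like cells of these libraries. The log2 fold change was 5.996 ± 0.269 and the adjusted p 3.15e-08 by edgeR's quasi-likelihood test. S100z, a calcium-binding EF-hand protein, stood at 84.5, 46.0, 88.4, 47.2 and 46.1 CPM against 11.1, 5.33, 13.2, 9.36 and 9.76 CPM, a log2 fold change of 2.67 ± 0.14. Neither gene overlapped between the classes.

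The other genes named by the smallest adjusted p and a single direction rose by less. They were Papss2, which makes the sulfate donor PAPS (log2 fold change 1.75), Hs3st5, a heparan sulfate sulfotransferase (1.503), Acss2, an acetyl-CoA synthetase (1.43), Gng3, a G protein gamma subunit (1.25), 2810001G20Rik (1.15) and Socs2, a suppressor of cytokine signaling (0.97). In the opposite direction were Pdlim1, a PDZ-LIM protein of ventral OSNs (-3.96), the nuclear factor I genes Nfix (-3.43) and Nfib (-2.80), Ifi27 (-2.59), Gldc of the glycine cleavage system (-2.28), Cpn1, a carboxypeptidase subunit (-2.07), the glyoxalase Glo1 (-1.15), the septin Sept3 (-0.97) and Pcolce2 (-0.62). Pcolce2 came under the fold threshold without the cells that chose Olfr613 (-0.566), which are described further on. Nfix was at 56.8, 51.1, 14.2, 33.9 and 13.8 CPM in class I OSNs against 269, 384, 424, 413 and 285 CPM in other OSNs. Its log2 difference of -3.43 ± 0.23 had an adjusted p of 7.34e-07 by edgeR's quasi-likelihood test. Stfa1, a gene of neutrophils, was also named by the rule (-3.34), and is taken up with the genes of other cell types.

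By lists of known genes, most dorsal genes were higher and most ventral genes lower in class I OSNs. These lists were chosen with earlier results of these data known. Of 7 dorsal zone genes, 6 were higher, namely Acsm4, Nqo1, Cd55 (log2 fold change 1.07), Socs2, Robo2 (0.88) and Cartpt (0.77), and none was lower. The list's median log2 fold change was 0.97, against -0.00 over all genes tested. Sema3f, the seventh, was at 0.40 and did not pass. Of 11 ventral zone genes 8 were lower and none higher, with a median of -1.96. Beside Pdlim1, Nfix, Nfib and Ifi27 these were Ncam2 (-2.71), Nfia (-1.96), Nrp2 (-1.46) and Cidea (-0.96), while Avp, Rprm and Pcp4l1 did not pass in either direction. Without the cells that chose Olfr613, described further on, Avp (-3.93) and Rprm (-1.20) were lower as well. Over all genes 206 of 10606 tested were then lower. As these cells were singled out for their profile, the values are a description only. Bcl11b, a transcription factor known from the split of class I and class II OSNs, stood at 18.1, 26.4, 4.17, 16.9 and 36.9 CPM against 102, 148, 103.1, 133 and 107 CPM in other OSNs. Its log2 fold change was -2.62 ± 0.21, with an adjusted p of 4.94e-06 by edgeR's quasi-likelihood test. It was 1 of 4 genes lower among 25 tested transcription factors of receptor choice, with Nfia, Nfib and Nfix, and none of that list was higher; Lhx2 was at 0.12 and Emx2 at -0.14.

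Genes of the working parts of the olfactory neuron were tested by list. None of 16 tested genes of olfactory signal transduction, 12 mature OSN markers, 11 genes of receptor trafficking and feedback, 15 maturation genes or 25 genes of HP1 and heterochromatin passed in either direction. Their median log2 fold changes were -0.03, -0.05, -0.00, -0.02 and -0.05. None of 18 activity-dependent genes passed, and 4 were higher once cells with RNA of another cell type were left out, where 181 of all 10283 genes tested were. The most abundant of them, S100a5, a calcium-binding protein, was at 20614, 16303, 18294, 19344 and 9056 CPM in class I OSNs against 11123, 8544, 12631, 16860 and 7828.5 CPM in other OSNs. It was the higher in class I OSNs of each library, with an adjusted p of 0.00195 by edgeR's quasi-likelihood test, but its log2 fold change of 0.55 ± 0.09 lay under the fold threshold. The summed level of the list was also the higher in class I OSNs of each library, most of it from S100a5. Of 23 axon guidance genes, Robo2 and Efnb1 (1.51) were higher and Nrp1 (-0.62) and Nrp2 lower, and of 21 genes of glomerular adhesion Ncam2 and Pcdh7 (-0.89) were lower. Nrp1 did not pass without gg8tTA (-0.50), Efnb1 not without control 1 (1.37) or control 2 (1.29), and Pcdh7 not without swap 1 (-0.996), control 1 (-0.72), control 2 (-0.64) or gg8tTA (-0.80). In the retinoic acid pathway, where 10 genes were tested, Cyp26b1, which degrades retinoic acid, was higher (1.42), and Dhrs3, which reduces retinal, lower (-1.68). Over all 10591 genes tested 1.29% were higher and 1.68% lower. The medians of the axon guidance, glomerular adhesion and retinoic acid lists were -0.05, -0.12 and -0.06, against -0.00 over all genes tested.

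**Figure D2:**
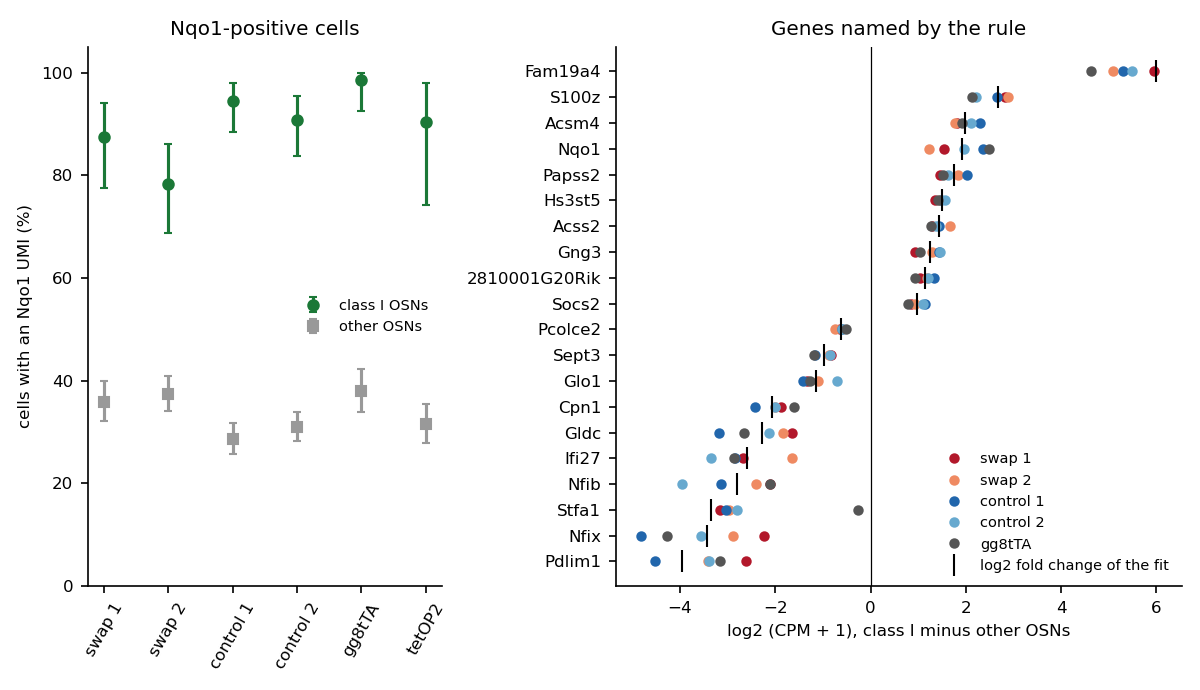
Left, percent of cells with an Nqo1 UMI in each library for class I OSNs (circles) and other OSNs (squares), with exact 95% intervals; class I OSNs lie between 78.4% and 98.6% and other OSNs between 28.7% and 38.0%. Right, log2 (CPM + 1) in class I OSNs minus that in other OSNs for the 20 genes named by the rule, 1 point per library, with a bar at the fitted log2 fold change; Fam19a4 stands at 5.996 and Pdlim1 at -3.96.

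Genes of other cell types differed between the classes as well. S100a8 and S100a9 of neutrophils (-2.25 and -2.14), Krt18 (-1.37), Cyp2f2 (-1.69) and Mki67 (-1.75) were lower in class I OSNs, and Apod of glia higher (2.20). Cells with at least 20 UMIs over the list of another cell type were 12 of 459 class I OSNs (2.61%) and 151 of 3907 other OSNs (3.86%), and immune genes marked 3 and 45 of them. The 6 genes above are on the lists that picked these cells, so their change on leaving them out was in part fixed in advance. Without these cells none of the 6 genes passed, with log2 fold changes of -0.11, -0.06, -0.02, -0.41, -0.40 and -0.14, and Stfa1 was too low to be tested. The other 19 genes named by the rule all passed there. In that setting 181 genes were higher and 154 lower.

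Class I OSNs were then compared with other OSNs that also had an Nqo1 UMI. Since a single UMI of Nqo1 was found in sustentacular-like cells too, some of these other OSNs may hold only background RNA. Fam19a4, S100z, Acsm4 and Acss2 were named by the rule in this comparison as well. Of 9360 genes tested 67 were higher in class I OSNs (0.716%) and 63 lower (0.673%), and 61 and 50 of them had the same sign in every library. With at least 3 UMIs of Nqo1 asked of both classes, 59 genes were higher and 46 lower of 8804 tested, and 92 of these were among the genes called with 1 UMI. The count of 130 was 83 without control 2 and 68 with DESeq2. Fam19a4 was at 71.7, 55.3, 133, 81.2 and 136 CPM against 0.374, 0.797, 3.61, 1.67 and 11.3 CPM, a log2 fold change of 4.86 ± 0.26 with an adjusted p of 2.73e-08 by edgeR's quasi-likelihood test. Ppa1, an inorganic pyrophosphatase, had the smallest adjusted p. It was at 2690, 2936, 2163, 1324 and 1320 CPM against 1030, 1044, 924, 665 and 606 CPM, a log2 fold change of 1.25 ± 0.06. Neither gene overlapped between the classes.

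Among the other genes named in this comparison, those higher in class I OSNs were the growth factor Bmp3 (2.41), S100z (2.20), the complement regulator Cd55 (1.34), the neuroendocrine protease Pcsk2 (1.27), Pcsk1n, the precursor of a convertase inhibitor (1.21), Acss2 (0.92), Acsm4 (0.63) and 2810001G20Rik (0.60). Acsm4 came under the fold threshold without gg8tTA (0.575), and 2810001G20Rik did so without swap 2 (0.55) and without cells holding RNA of another cell type (0.576). Both were under it with at least 3 UMIs of Nqo1 asked for, at 0.456 and 0.499. Lower were Bcl11b (-2.88), Nfix (-2.84), the adhesion molecule Pcdh7 (-1.90), Gldc (-1.75), the lectin Mbl2 (-1.19), the protease Adam28 (-1.01), Ifit1 (-0.87), the semaphorin receptor Nrp1 (-0.83) and the actin-binding Cotl1 (-0.71). Ltf, lactoferrin of neutrophils (-4.36), was too low to be tested without cells holding RNA of another cell type. Of 6 tested dorsal genes only Acsm4 and Cd55 were higher, and 5 of 10 ventral genes were lower, with medians of 0.43 and -1.05 against -0.00 over all genes. Of 21 tested members of the transcription factor list 3 were lower and 1 higher. The higher one was Tshz1 (0.71), which did not pass without control 2 (0.54).

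A check outside the rule came from class I genes whose symbols fall outside Olfr543 to Olfr692. There were 36 OSNs among the other OSNs that chose Olfr33, Olfr64, Olfr65, Olfr67, Olfr68, Olfr69 or Olfr78, genes with class I family numbers that lie inside the same cluster, between 102713455 and 103907447 on chromosome 7 (GRCm38). They had the profile of the members. Acsm4 was found in 100% of them, Nqo1 in 88.9%, Fam19a4 in 55.6%, S100z in 47.2%, Nfix in 11.1% and Bcl11b in 5.56%. In the remaining 3871 other OSNs the shares were 35.8%, 32.99%, 0.387%, 7.88%, 80.8% and 69.1%. Of the 35 other OSNs with a Fam19a4 UMI, 20 had chosen one of these genes. The values are given without a test, since these cells were grouped after the first results were known.

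Class I OSNs differed among themselves with the receptor they chose. The 24 receptors with 7 or more cells in the 5 libraries without tetOP2, 256 cells in all, are described, a limit set after the counts were seen. Nqo1 was found in every cell of 15 receptors and Acsm4 in every cell of 18. Fam19a4 ranged from 0% of the cells that chose Olfr686 to 100% of the 13 that chose Olfr672, Cd55 from 0% for Olfr544, Olfr596, Olfr615, Olfr675 and Olfr686 to 100% for Olfr550, Olfr591, Olfr658 and Olfr666, and S100z from 0% for Olfr655, Olfr596 and Olfr686 to 88.9% for Olfr691. A Cd55 UMI was also found in 23.2% to 40.2% of sustentacular-like cells of the 5 libraries. The cells of each receptor are few, and no test was made across receptors. Shares are pooled over libraries, which differed in Fam19a4 and in the receptors chosen. The 13 cells that chose Olfr672 all came from control 1, control 2 and gg8tTA. Of the 8 that chose Olfr686, 6 came from swap libraries.

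Olfr613 stood apart from the rest. Of the 16 cells that chose it, 12.5% had an Nqo1 UMI, the lowest share of the 24 receptors, although 100% had Acsm4. The ventral genes Nrp2 (93.8%) and Cidea (93.8%) were found in nearly all of them, and Calb2, which encodes calretinin, in 6.25%, against 15.3%, 33.8% and 64.1% of all class I OSNs. Some genes of the zone lists went the other way. The ventral gene Nfix was found in 6.25% of these cells, against 14.2% of all class I OSNs, and the dorsal gene Cd55 in 56.3% against 41.4%. For Nrp2 the next highest share was 50% (Olfr686), whereas Cidea was also found in 88.9% of cells that chose Olfr691 and 87.5% of those that chose Olfr615. Sustentacular-like cells had an Nrp2 UMI in 2.83% to 5.91% of cells of the 5 libraries and a Cidea UMI in 4.76% to 8.33%. They had a Cd55 UMI in 23.2% to 40.2% and a Calb2 UMI in 15.1% to 47.3%. The cells that chose Olfr613 came from swap 1 (3 cells), swap 2 (12) and control 1 (1), and their median depth was 15648.5 UMIs. Olfr571, Olfr556 and Olfr686 were low in both Nqo1 and Acsm4. Nqo1 was found in 46.7%, 50% and 37.5% of their cells, against 89.8% of all class I OSNs. Acsm4 was found in 33.3% of 15 cells, 25% of 8 and 25% of 8 that chose them, while Bcl11b was found in 46.7%, 75% and 100%. Sustentacular-like cells of the 5 libraries had an Acsm4 UMI in 37.6% to 53.1% of cells and a Bcl11b UMI in 5.49% to 11.7%, so these Acsm4 shares are not above background. These 31 cells held 21 of the 55 class I OSNs with a Bcl11b UMI, and Olfr613 held another 6. The cells that chose Olfr686 had Nfix in 100% and Fam19a4 in 0%. Of other OSNs 80.2% had Nfix and 68.5% Bcl11b, but an Nfix UMI was also found in 35.9% to 72.9% of sustentacular-like cells.

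**Figure D3:**
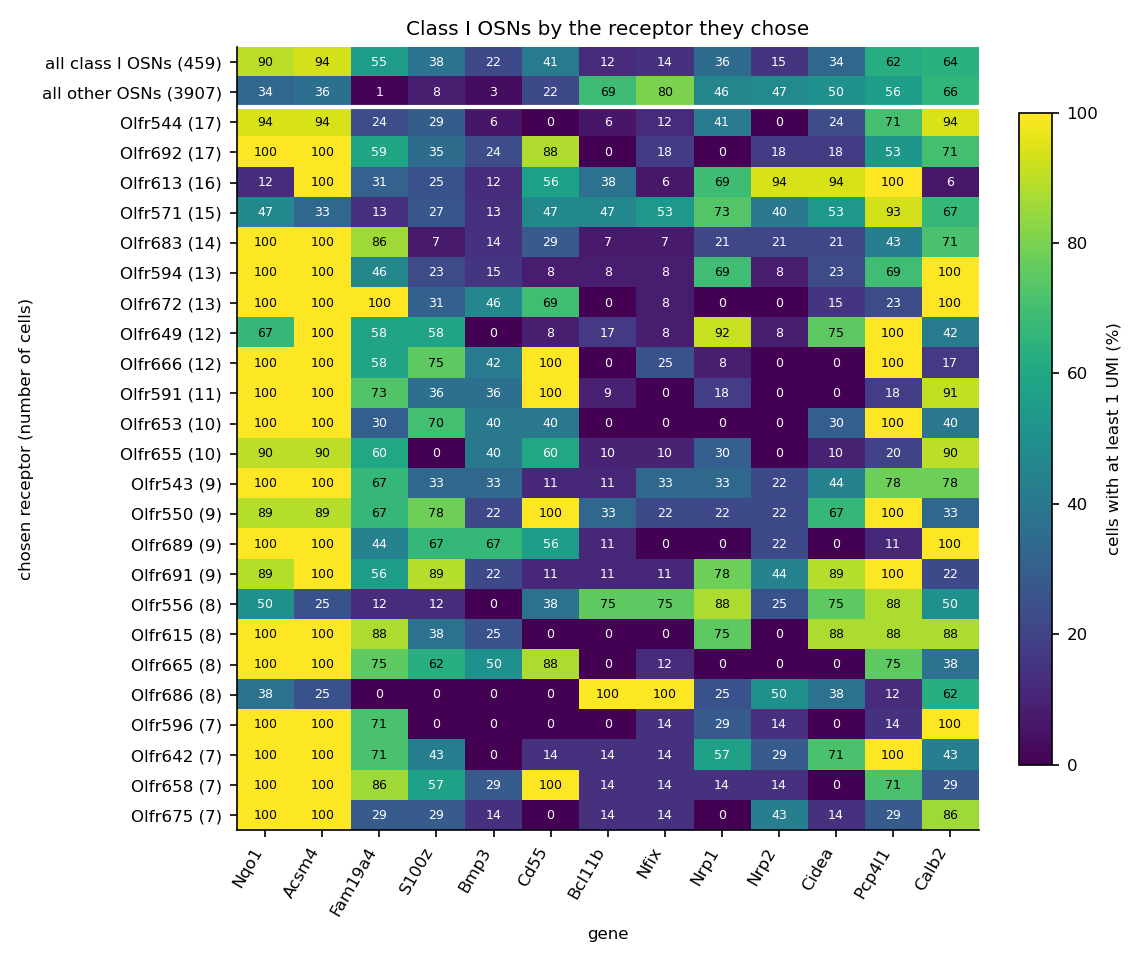
Percent of cells with at least 1 UMI of 13 genes (columns) in class I OSNs by the receptor chosen (rows, number of cells in brackets, 5 libraries without tetOP2), under the rows for all class I OSNs and all other OSNs. Most receptors show Nqo1 and Acsm4 near 100%, while Olfr613 has Nqo1 in 12.5% of cells. Olfr571, Olfr556 and Olfr686 have Nqo1 in 37.5% to 50% and Acsm4 in 25% to 33.3% of cells.

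The Nqo1-negative class I OSNs were counted by library. There were 9 and 21 Nqo1-negative class I OSNs in swap 1 and swap 2, 6 and 10 in control 1 and control 2, and 1 in gg8tTA. Olfr613 had been chosen by 3 and 10 of those of swap 1 and swap 2 and by 1 and 0 of those of the controls. Other receptors held Nqo1-negative cells too, counted here over the 5 libraries without tetOP2. An Nqo1 UMI was found in 7 of 15 cells with Olfr571, 4 of 8 with Olfr556 and 3 of 8 with Olfr686. In that order, swap 1 and swap 2 held 4 and 4, 1 and 4, and 2 and 4 of these cells. Control 1 and control 2 held 2 and 3, 1 and 2, and 0 and 2. Their Nqo1-negative cells were not split by library. The Nqo1 share of class I OSNs was 82.9% ± 6.47 in swap and 92.7% ± 2.59 in control libraries (SD, n = 2 each), a difference of -9.74 points with an exact permutation p of 0.33, the smallest possible. Without the cells that chose Olfr613 the shares were 91.3% and 87.1% against 95.4% and 90.8%. These cells were singled out for their low Nqo1 share and came mostly from swap libraries, so leaving them out had to raise the swap share, and the values are a description only.

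A second OR was seen in a minority of class I OSNs. A second receptor with at least 3 UMIs was found in 9.72% of class I OSNs of swap 1, 8.25% of swap 2, 11% of control 1, 7.34% of control 2 and 6.94% of gg8tTA, against 5.63%, 6.11%, 5.49%, 7.67% and 7.14% of other OSNs. The classes overlapped. The mean difference was 2.24 points (8.65% ± 1.70 against 6.41% ± 0.957, SD, n = 5 libraries), with an exact permutation p of 0.25. The shares depended on depth. In cells thinned to 3000 UMIs they were 3.125%, 2.11%, 7.14%, 4.95% and 1.43% of class I OSNs, in the same order. In other OSNs they were 2.29%, 2.45%, 2.34%, 3.92% and 2.95%. All further values on second receptors are from unthinned cells. The second receptor of a class I OSN had a symbol from Olfr543 to Olfr692 in 34 of 40 cells, and in 2 more it was Olfr33 or Olfr78, class I genes of the same cluster, which makes 36 of 40, or 90% (exact interval 76.3 to 97.2). Among other OSNs, leaving out 2 cells that chose a class I gene outside that range, it was a class I gene in 11 of 250, or 4.4% (2.22 to 7.74). The count over all class I genes was chosen after seeing the data. It lay on the same chromosome as the chosen one in 90% and within 100 kb in 75% of these class I OSNs, against 66.3% and 57.9% in other OSNs. Class I genes share 1 cluster, so this proximity is in part fixed by the class.

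The second receptors of class I OSNs fell into pairs of different kinds, sorted here after they were seen. In 14 cells and 5 pairs the coding sequences were 94.2% to 99.5% identical, over 10.1 to 73.3 kb. Reads of such genes may be divided between them by the counting, so a second receptor there is uncertain. Olfr596 and Olfr603 were the closest, at 99.5% identity, and all 7 cells that chose Olfr596, with 23 to 90 of its UMIs, had 7 to 11 of Olfr603. Olfr612 and Olfr611 were 97.5% identical, and in 3 of the 4 cells that chose Olfr612 the counts were of the same size, at 39 to 91 and 38 to 82 UMIs. In a further 15 cells and 7 pairs the genes were only 55.7% to 67.4% identical but they lay within 15 kb, 3.85 to 12.3 kb apart. Distances are between the lowest coordinates of the gene models, whatever their strand. All 5 cells that chose Olfr616, with 10 to 24 UMIs, had 5 to 13 UMIs of Olfr615, which lies 3.85 kb away on the opposite strand, and 2 of 8 cells that chose Olfr615 had Olfr616. Olfr615 was also second in 4 of the 16 cells that chose Olfr613, 10.1 kb away on the same strand. The remaining 11 cells held 11 pairs that lay farther apart or on another chromosome. In a few of them both receptors were high, as in a cell with 130 UMIs of Olfr683 and 124 of Olfr675, a cell with 132 of Olfr613 and 112 of Olfr1152, and a cell with 77 of Olfr667 and 68 of Olfr675. Whether such cells were doublets was not tested, since no doublet caller was run.

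The contrast between the kinds can be read from the coding sequences themselves. For each of 3 pairs a stretch of 120 coding bases from the coding exon is printed, 5′ to 3′ on the gene's strand (GRCm38), with capitals at the bases that differ within the pair. For the close pairs it is the stretch with the most differences, and for Olfr616 and Olfr615 the first that aligns without a gap. Olfr596 lies at chr7:103310083-103310202 (plus strand) and Olfr603 at chr7:103383521-103383640 (minus), coding bases 361 to 480 in both, and 2 of 120 bases differ. Olfr612 lies at chr7:103538718-103538837 (minus) and Olfr611 at chr7:103517868-103517987 (minus), coding bases 396 to 515, and 10 differ. Olfr616 lies at chr7:103565143-103565262 (minus), coding bases 16 to 135, and Olfr615 at chr7:103560491-103560610 (plus), coding bases 13 to 132, and 58 differ.
Olfr596: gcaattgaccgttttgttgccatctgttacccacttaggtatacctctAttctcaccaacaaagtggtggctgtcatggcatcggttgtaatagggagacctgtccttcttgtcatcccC
Olfr603: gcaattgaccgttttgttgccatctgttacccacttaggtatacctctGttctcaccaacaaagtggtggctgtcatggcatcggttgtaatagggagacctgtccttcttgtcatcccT
Olfr612: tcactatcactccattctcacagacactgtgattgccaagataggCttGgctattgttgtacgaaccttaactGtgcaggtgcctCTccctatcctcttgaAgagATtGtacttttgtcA
Olfr611: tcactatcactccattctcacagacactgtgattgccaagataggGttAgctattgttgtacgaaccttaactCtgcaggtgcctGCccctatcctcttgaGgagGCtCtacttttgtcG
Olfr616: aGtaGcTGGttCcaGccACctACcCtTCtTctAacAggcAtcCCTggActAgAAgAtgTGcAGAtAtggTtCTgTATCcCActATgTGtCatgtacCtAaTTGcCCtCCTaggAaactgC
Olfr615: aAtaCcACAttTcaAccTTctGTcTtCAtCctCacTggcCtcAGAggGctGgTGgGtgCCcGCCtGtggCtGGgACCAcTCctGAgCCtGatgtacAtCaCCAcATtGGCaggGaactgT

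**Figure D4:**
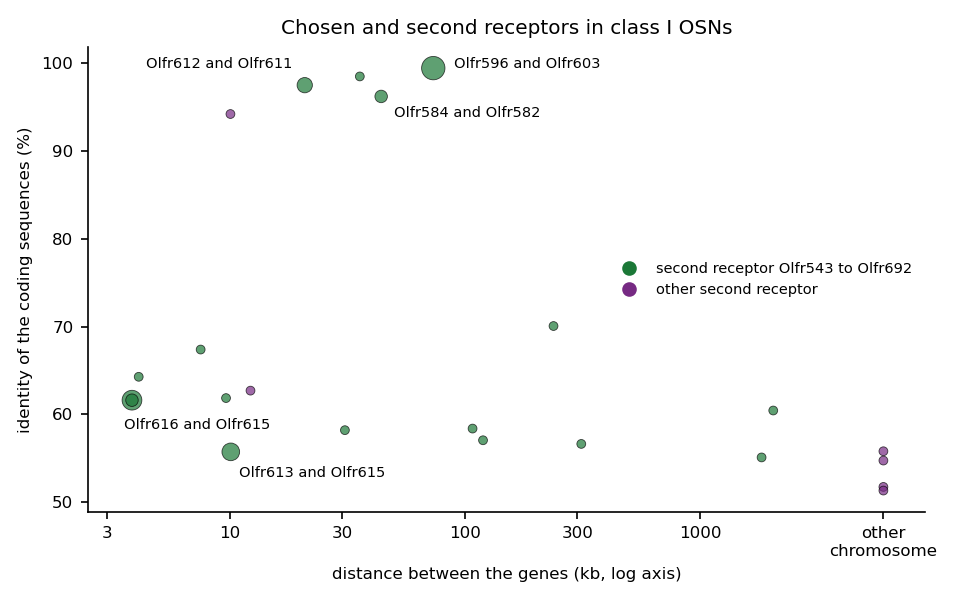
Identity of the coding sequences (percent) against the distance between the lowest coordinates of the genes (kb, log axis) for pairs of a chosen and a second receptor in class I OSNs of 5 libraries. Pairs on different chromosomes have no distance in kb. The area of a point grows with the number of cells, and color marks whether the second receptor lies in Olfr543 to Olfr692. Olfr596 and Olfr603 stand at 99.5% and 73.3 kb, and Olfr616 and Olfr615 at 61.6% and 3.85 kb.

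The swap allele was visible in the class I OSNs. Cbx1, which encodes HP1β, was at 0 and 4.21 CPM in swap 1 and swap 2 and at 88.5 and 147 CPM in control 1 and control 2. The groups were far apart. Its log2 fold change was -5.54 ± 0.62, with an adjusted p of 0.0153 by edgeR's quasi-likelihood test, and since swap 1 had no UMI this fold depends on the prior count. Cbx5, which encodes HP1α, was at 71.7 and 93.4 CPM in swap and at 22.9 and 25.5 CPM in control libraries. These values did not overlap either, but the log2 fold change of 1.77 ± 0.33 did not pass, with an adjusted p of 0.353 by edgeR's quasi-likelihood test; in the 12 alternatives of this comparison the adjusted p ran from 0.000809 to 0.364, and it passed in 5 of them.

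Within class I OSNs, Cbx1 was the single gene of 8638 tested that passed between swap and control libraries (0.0116% lower), and none was higher (0%). At an unadjusted p below 0.05 there were 109 genes, and DESeq2 called 3. The count rested on which libraries entered. It was 46, 49, 69 and 85 without swap 1, swap 2, control 1 and control 2, where the group with a lone library was assumed to vary like the other, and 0 with gg8tTA added to the controls. With the replicate number as a block 12 genes were higher and 6 lower, and without a filter on low counts 45 and 44 of 14673. None of 7 dorsal genes and none of 10 tested ventral genes passed, with median log2 fold changes of -0.11 and 1.16, against -0.01 over all genes tested. None of 16 genes of signal transduction passed, with a median of -0.12.

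The effect of the swap was compared between class I and other OSNs. In a test of the interaction of class and genotype over 11602 genes, 8 genes had a higher (0.069%) and 9 a lower (0.0776%) swap effect in class I OSNs. The count of 17 depended on the libraries and cells, at 148, 23, 94 and 111 without swap 1, swap 2, control 1 and control 2, 141 without a filter on low counts, and 84 without cells holding RNA of another cell type. Nqo1 was at 1293 and 1384 CPM in class I OSNs of swap 1 and swap 2 and 1943 and 1662 CPM in those of control 1 and control 2, but at 449 and 591 against 379 and 426 CPM in other OSNs. Swap libraries were thus the lower in class I OSNs and the higher in other OSNs. The difference of the log2 effects was -0.79 ± 0.12, with an adjusted p of 0.0251 by edgeR's quasi-likelihood test, and it did not pass without swap 2 (-0.63) or with DESeq2 (adjusted p 0.468). The swap share of Nqo1-positive cells moved in the same directions, by -9.74 points in class I and 6.84 points in other OSNs.

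Of 11 ventral genes 3 had a higher swap effect in class I OSNs, and the other 8 did not pass. Cidea, a lipid droplet protein, was at 124 and 101 CPM in class I OSNs of swap and 109 and 53.4 CPM in those of control libraries, and at 188 and 123 against 281 and 158 CPM in other OSNs. The groups overlapped within class I OSNs. The difference of the log2 effects was 1.01 ± 0.16 with an adjusted p of 0.0252 by edgeR's quasi-likelihood test. Pcp4l1, a relative of the calmodulin-binding protein Pcp4, was at 1364 and 1183 against 1114 and 1127 CPM in class I OSNs and at 670 and 595 against 864 and 1151 CPM in other OSNs, a difference of 0.84 ± 0.11. In these 4 libraries a Pcp4l1 UMI was found in 69.6% to 83.1% of sustentacular-like cells. The shares were 55.0% to 68.0% in class I OSNs and 46.5% to 64.5% in other OSNs. The list's median was 1.34, against -0.00 over all genes tested, and 7 of its genes had a higher effect without cells holding RNA of another cell type, where calls over all genes rose as well, to 51 higher of 10981 tested. The third of the called genes, Avp, which encodes vasopressin, was at 204 and 32.1 against 12.4 and 1.46 CPM in class I OSNs, but 87.1% and 89.5% of its swap UMIs came from a single cell in each library.

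The differences were also computed without the cells that chose Olfr613. As these were singled out for their profile and came mostly from swap 2, the values are a description only. Without them, the difference was 0.61 for Pcp4l1, 0.55 for Cidea, 3.39 for Avp, 1.00 for the adhesion molecule Pcdh7, which had been 1.54, and 0.59 for Fxyd2, a subunit of the sodium pump, which had been 4.59. None of the 5 then passed, with adjusted p-values of 0.152, 0.808, 0.0542, 0.545 and 1 by edgeR's quasi-likelihood test. Nqo1 kept passing there, at -0.62. Cidea (0.86), Pcdh7 (1.18) and Fxyd2 (4.48) did not pass without swap 2 either. The part of the receptors chosen in these differences was not tested.

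Calb2 and Gng8 passed in each of the 9 alternatives of this comparison. Calb2 was at 1169 and 1091 CPM in class I OSNs of swap against 1424 and 883 CPM in those of control libraries, and at 1749 and 1323 against 1163 and 691.5 CPM in other OSNs, a difference of -0.75 ± 0.09. Fos, an activity-induced gene, was at 377 and 336 against 468 and 503 CPM in class I OSNs, where swap was the lower, and at 286 and 296 against 243 and 263 CPM in other OSNs, where it was the higher. Its difference was -0.65 ± 0.10, and it did not pass without swap 2 (-0.53) or without the Olfr613 cells (-0.52). Gng8, the G protein subunit of immature OSNs, was at 63.2 and 9.30 against 1.66 and 2.92 CPM in class I OSNs and at 29.96 and 12.3 against 21.7 and 20.5 CPM in other OSNs, a difference of 3.78 ± 0.58 that rests on few UMIs in the class I sums (53, 11, 2 and 4). Fabp7 of glia (4.94) and Wfdc2, Reg3g, Bpifa1 and Prdx6 of glands and respiratory cells (-4.66, -3.69, -6.94 and -2.43) were named as well, and without cells holding RNA of another cell type they were at 0.23, -1.96, -0.38, -0.29 and -0.35 and did not pass. Fabp7, Reg3g and Bpifa1 are on the lists that picked the cells left out, so their change was in part fixed in advance.

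**Figure D5:**
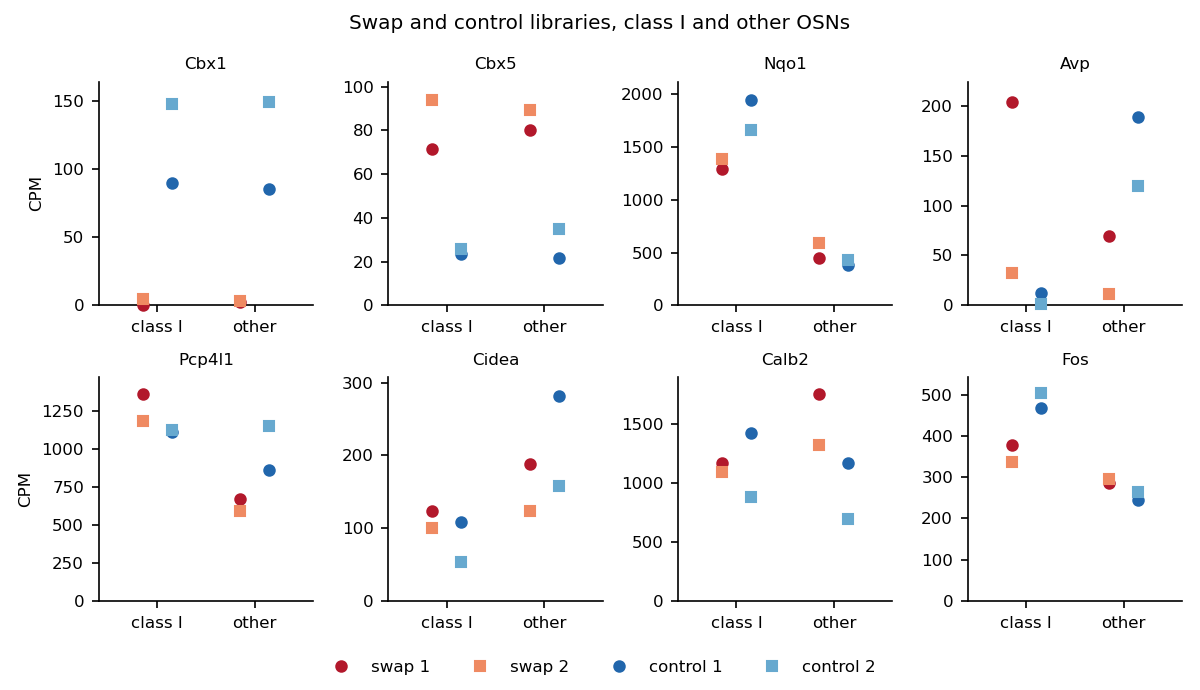
CPM of 8 genes in class I and other OSNs of the swap (red) and control (blue) libraries, 1 point per library. Cbx1 is near 0 in both swap libraries in both classes, and Nqo1 and Fos are lower in swap than in control libraries in class I OSNs only.

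In tetOP2, where Olfr17 was driven in many OSNs, the 31 class I OSNs kept their profile. Nqo1 was found in 90.3% of them (74.2 to 98.0), Acsm4 in 90.3%, Fam19a4 in 61.3% and Bcl11b in 6.45%, within or near the ranges of the other libraries. An Olfr17 UMI was found in 64.5% of class I OSNs, at 1 UMI in the median cell, in 55.0% of the other OSNs that had not chosen Olfr17 and in 58.3% of sustentacular-like cells of that library. Median depths were 10905 UMIs in class I OSNs and 13454.5 in sustentacular-like cells. Whether the UMIs in class I OSNs came from free RNA was not tested.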

How the data were processed

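The 6 10x libraries of dissociated MOE were analyzed. Per the labels and the study's methods, the authors made them with 10X Chromium and counted UMIs per gene with Cell Ranger, introns included, on mm10; the deposited counts are raw UMI counts. The matrix headers of 4 libraries name software version 3.1.0, and those of 2 name none. The series text speaks of sorted cells while the methods describe no sort. Part of the genotype labels is not reported here. Totals were 63277934, 60729307, 58498968, 59045808, 35298494 and 32005196 UMIs in swap 1, swap 2, control 1, control 2, gg8tTA and tetOP2, and 92.5%, 84.4%, 90.6%, 57.5%, 100% and 100% of barcodes had 1000 UMIs and 500 genes. No doublet caller was run.

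The members and gene lists were chosen with earlier results of these data known. Counts were summed per library and class and tested with edgeR 4.0.16 (quasi-likelihood, TMM, filterByExpr; R 4.3.3, limma 3.58.1), with the library as a block between classes and without tetOP2, and with Benjamini-Hochberg adjustment. OR genes and the rule genes were not tested. DESeq2 1.42.0 was an alternative. Shares were compared by two-sided exact permutation tests over libraries. The scripts were tested on simulated data. Genes were named if they stood on a fixed list, or if they had the lowest adjusted p among called genes, 10 higher and 10 lower between classes (same sign in every library) and 5 higher and 5 lower for swap and interaction; receptors if among the 10 most chosen over control 1, control 2 and gg8tTA, or chosen by 5 or more cells in only swap or only control libraries. Python 3.11.15 with numpy 2.4.6, scipy 1.17.1, pandas 2.3.3, Biopython 1.88 and matplotlib 3.10.9 did the rest. Positions and promoter sequences were from RefSeq and coding sequences from GENCODE vM21, both on GRCm38.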

Additional observations from a re-analysis of the deposited data

Results flagged for a closer look

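The swap effect differed between class I and other OSNs in the following genes by the test of the interaction itself. Each value is the log2 swap effect in class I OSNs minus that in other OSNs. Neuronal genes were Avp (6.09), Fxyd2 (4.59), Gng8 (3.78), Pcdh7 (1.54), Cidea (1.01), Pcp4l1 (0.84), Fos (-0.65), Calb2 (-0.75) and Nqo1 (-0.79). Without swap 2, the values for Fxyd2 (4.48), Pcdh7 (1.18), Cidea (0.86), Fos (-0.53) and Nqo1 (-0.63) did not pass, and without the cells that chose Olfr613 those for Avp (3.39), Fxyd2 (0.59), Pcdh7 (1.00), Cidea (0.55), Pcp4l1 (0.61) and Fos (-0.52) did not. Genes known from glia, glands or respiratory cells were Fabp7 (4.94), Wfdc2 (-4.66), Reg3g (-3.69), Bpifa1 (-6.94) and Prdx6 (-2.43). Without cells holding 20 or more UMIs over the list of another cell type these 5 stood at 0.23, -1.96, -0.38, -0.29 and -0.35 and did not pass. For Fabp7, Reg3g and Bpifa1, which are on those lists, this was in part fixed in advance.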

How the results depend on the processing

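Leaving out cells with RNA of another cell type or cells that chose Olfr613, and the alternatives for the number of receptors, were chosen after seeing the data. Between class I and other OSNs the count of 315 was 60 without the library block, and 256 to 297 when a library was left out. Against Nqo1-positive other OSNs the count of 130 was 68 with DESeq2, 318 without a filter, 12 without the library block, and 83 to 162 when a library was left out. Between swap and control in class I OSNs the count of 1 was 3 with DESeq2, 89 without a filter, 0 with gg8tTA added to the controls (122 at an unadjusted p below 0.05), 3 without cells holding RNA of another cell type, 2 without Olfr613 cells, and 46 to 85 when a library was left out. With a replicate block it was 18. The labels give the swap and control libraries the same numbers. Deviations of same-numbered libraries correlated at 0.43 in class I and 0.72 in other OSNs. The paper describes the controls of its single-cell data as littermates, but the labels of the 2 pairs share only a number. Whether same-numbered libraries came from 1 litter is not known. For the interaction the count of 17 was 11 with DESeq2, 141 without a filter, 84 without cells holding RNA of another cell type, and 23 to 148 when a library was left out. A lone library in a group was assumed to vary like the others. The difference of -2.1 UMIs of the chosen receptor was -14.8 unthinned. The difference of -15.5 receptors was -14.4 at 10 receptor UMIs (68 cells drawn), -19.2 with a gate of 3 Omp UMIs (85 cells), -14.8 by MOR family number (75 cells) and -14.3 without Olfr613 cells (69 cells). It was -21.0 to -15.1 when a library was left out, where the 72 cells compared became 97 without swap 1 (-21.0). The number of cells drawn changed along with these settings, so the values do not separate the 2. Among named genes, 4 values of 3 genes changed sign: without cells holding RNA of another cell type Apod stood at -0.14 in the first comparison and -0.0406 in the second, and S100a9 at 0.0037 in the second, and Krt18 stood at 0.0962 with a gate of 3 Omp UMIs. Of the others, 1339 values kept their side of the threshold, 190 fell below it and 5 rose above it. The cause of these changes was not tested. With 2 libraries a group, exact permutation tests over libraries cannot reach 0.05.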

Other observations

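Among genes induced by activity, 18 were tested in the interaction of class and genotype. Pcp4l1 had a higher and Fos and Calb2 a lower swap effect in class I OSNs, against 8 higher and 9 lower of all 11602 genes tested. Pcp4l1 is also on the ventral zone list and was counted there too. The list median was -0.33, against -0.00 over all genes tested. Leaving out cells with RNA of another cell type, 1 gene of the list was higher and 5 were lower, against 51 and 33 of all 10981 genes tested there. Between class I and other OSNs, 4 genes of that list were higher in class I OSNs under the same exclusion, against 181 of all 10283 genes tested. Of the 36 OSNs with class I receptors outside the range of symbols, the 8 that chose Olfr78 had Nqo1 in 50%, and the 28 that chose the other 6 genes had it in 100%.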
